A study of Drosophila melanogaster with 2 samples.

Results

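Among the places bound by the tagged nuclear receptor Hr78 in fly embryos, 750 of 5723 summits (13.1%, 95% exact interval 12.2 to 14%) lay between genes and away from every start site. A summit, the point of highest enrichment in a peak, was included when no annotated gene span held it and every annotated transcript start was more than 500 bp away. Pseudogenes and transposable elements were not counted as genes. The summits came from an optimal list, made by the authors by keeping peaks that recur between replicates (a threshold on the irreproducible discovery rate). Of the other summits, 2829 lay within genes beyond the start-site windows and 2144 lay within 500 bp of a start. The study was a ChIP-seq experiment on whole Drosophila melanogaster embryos aged 8 to 16 h, of both sexes. The embryos came from 1 transgenic line with a stable copy of Hr78 tagged by eGFP at the C-terminal end, and chromatin sheared to 200 to 800 bp was precipitated with an antibody against GFP. There was 1 group of 2 biological replicates, numbered 1 and 3, with no line lacking the tag and no second condition, so comparisons were made between kinds of place in the genome. Whole embryos were used, so that binding in few cells and weak binding in many cannot be told apart.

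Hr78 is a nuclear receptor of the family that holds the vertebrate testicular receptors TR2 and TR4. It is needed for growth of the larval tracheal system and has been linked to the response to the steroid hormone ecdysone. Receptors of this class contact the hexamer AGGTCA, called a half-site, either alone or as repeats with a short spacer, of which the direct repeat with a spacer of 1 base (DR1) is one. In the fly genome, sequence between genes holds many enhancers, which can act on a promoter at a distance. A summit is named here by the protein-coding gene whose start is nearest, which gives its position and does not show which gene, if any, it acts on.

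Sequences around the summits show what the half-site and the repeat look like in place. Each runs 5′ to 3′ on the plus strand of release 6 of the genome (dm6) and covers 50 bp on either side of the summit. The first lines are among the highest summits with the exact half-site, shown because they hold it singly or repeated, and the capitals mark AGGTCA or, where it lies on the minus strand, TGACCT.
comm, 3L:15729525-15729625: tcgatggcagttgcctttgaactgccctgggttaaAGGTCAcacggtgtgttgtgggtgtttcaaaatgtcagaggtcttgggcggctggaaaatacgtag
Rcd2, 3L:20540893-20540993: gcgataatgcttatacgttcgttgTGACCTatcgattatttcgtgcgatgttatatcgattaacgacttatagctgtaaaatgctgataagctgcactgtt
Tob, X:16092833-16092933: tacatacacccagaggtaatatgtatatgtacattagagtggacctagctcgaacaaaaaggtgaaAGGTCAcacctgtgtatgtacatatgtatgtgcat
CG43245, 3L:10766786-10766886: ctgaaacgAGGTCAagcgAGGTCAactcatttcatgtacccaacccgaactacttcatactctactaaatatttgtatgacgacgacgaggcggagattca
chinmo, 2L:1638751-1638851: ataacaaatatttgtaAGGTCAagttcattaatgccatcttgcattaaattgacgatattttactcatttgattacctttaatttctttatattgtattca
CG46467, 3R:9873445-9873545: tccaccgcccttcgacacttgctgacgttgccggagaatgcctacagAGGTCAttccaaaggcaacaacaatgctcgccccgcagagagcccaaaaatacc
The next lines are summits with DR1, of signals between 341 and 637, and the capitals mark the whole repeat, again in reverse where it lies on the minus strand.
comm, 3L:15767547-15767647: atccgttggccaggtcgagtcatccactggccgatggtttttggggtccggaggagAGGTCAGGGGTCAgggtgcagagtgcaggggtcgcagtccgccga
CG13300, 3L:6365946-6366046: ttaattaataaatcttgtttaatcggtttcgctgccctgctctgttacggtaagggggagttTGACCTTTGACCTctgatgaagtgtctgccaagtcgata
Octbeta2R, 3R:12601035-12601135: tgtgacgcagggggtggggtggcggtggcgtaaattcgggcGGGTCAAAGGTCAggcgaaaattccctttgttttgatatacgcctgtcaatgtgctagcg
scramb1, 3L:10229803-10229903: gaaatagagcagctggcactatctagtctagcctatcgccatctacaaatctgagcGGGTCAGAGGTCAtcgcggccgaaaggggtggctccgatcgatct
CG12507, X:16245496-16245596: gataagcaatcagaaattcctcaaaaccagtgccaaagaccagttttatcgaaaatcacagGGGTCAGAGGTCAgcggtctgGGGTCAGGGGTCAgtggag
The last sequence is a high summit with neither element, and it has no capitals.
Rh5, 2L:12005915-12006015: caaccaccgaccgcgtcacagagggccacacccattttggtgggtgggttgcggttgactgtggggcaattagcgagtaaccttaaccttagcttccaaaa
The hexamer sat within 50 bp of each summit of the first set but at no fixed place, 24 bp below the Rcd2 summit and 18 bp above the Tob summit on the coordinate axis. The CG43245 sequence held it in tandem copies 10 bp apart, and the CG12507 sequence held the whole DR1 more than once.

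The exact half-site was present within 50 bp of 70 of the 750 intergenic summits (9.33%, 7.35 to 11.6%), against 11 of the windows centred 500 bp away on the higher-coordinate side (1.47%). Over all 5723 optimal summits the share was 10%. The difference between summit and flanking window was 7.87 percentage points (5.64 to 10.1), with an adjusted p of 3.18e-11 by an exact McNemar test, Benjamini-Hochberg adjusted over 26 consensus sequences. The looser form RGKTCA, in which R is A or G and K is G or T, was present at 228 summits (30.4%) and in 75 flanking windows (10%; exact McNemar, adjusted p = 1.24e-21). Among all optimal summits, 30.3% held it. The half-site was therefore close to a minority of the intergenic summits in either form.

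The 78 exact copies lay on both strands, 42 on the plus and 36 on the minus strand, at a median of 20 bp from the summit. Of them, 40 were within 20 bp, and 8 summits had several copies. In bins of 20 bp, the highest count was 26 copies, just above the summit. On the lower-coordinate side, the stretch from 160 to 280 bp away held 53 copies, against 28 in the same stretch on the higher-coordinate side. The other optimal summits had the same lean, with 320 copies on the lower side and 187 on the higher side. These stretches were chosen after the profile was seen.

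**Figure D1:**
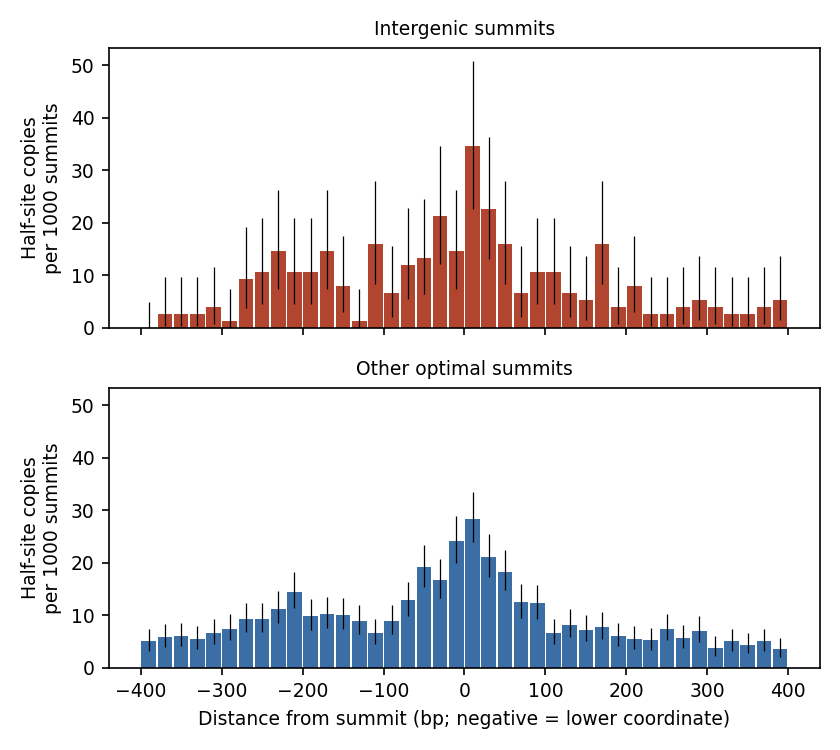
Copies of the exact half-site per 1000 summits (vertical axis) by distance from the summit in bins of 20 bp (horizontal axis, bp, negative towards lower coordinates), for the 750 intergenic summits (top) and the other optimal summits (bottom), with lines for 95% exact Poisson intervals. Both classes have their highest bin just above the summit, at 26 copies for the intergenic summits, and a lower rise between 160 and 280 bp on the lower-coordinate side.

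Neighbouring summits 150 to 250 bp apart were counted as pairs, whether or not they shared a region. Among the intergenic summits there were 88 such pairs, out of 844 in the optimal list. Their median gap was 202.5 bp, a value bounded by the range that defined the pairs, and other gaps were not counted. In 87 of the 88, the lower-coordinate summit was the higher in signal. That summit held the exact half-site in 16 pairs (18.2%), against 3 pairs (3.41%) for the summit at the higher coordinate. The same counts over all 844 pairs are not given here, so neither order is shown to be particular to the intergenic pairs. The comm pair is an example: the summit at 3L:15729575 had a signal of 5170 and the half-site, and the one at 3L:15729807 had a signal of 1238 and no half-site. Whether the second summit of a pair is a separate binding event was not tested.

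Half-sites were more frequent at the intergenic summits of high signal. With the summits in 4 groups by signal, 26 of 188 in the highest group held AGGTCA (13.8%), against 13 of 188 in the lowest group (6.91%), a difference of 6.91 percentage points (0.709 to 13.2). The groups between had 9.63% and, below it, 6.95%. By distance to the nearest start, the shares were 6.52% up to 1000 bp, 14% from there to 2000 bp, 8.44% to 5000 bp, 10.6% to 10000 bp and 5.06% beyond 10000 bp. They followed no order with distance, and their intervals overlapped. Summits within genes had the half-site at 11.7%, and summits by start sites at 8.12%. The intergenic share differed from these by -2.33 points (-4.58 to 0.226) and 1.22 points (-1.03 to 3.75), and neither interval left out 0.

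DR1 was the single arrangement of RGKTCA pairs, of 27 tested, that passed at the intergenic summits. It was present at 15 summits (2%, 1.12 to 3.28%) and in no flanking window, where a count of 0 among 750 has an exact interval up to 0.491% (exact McNemar, adjusted p = 0.00165 over the 27). Over all optimal summits the share was 1.36%. Summits by start sites had DR1 at 0.560%, lower than the intergenic share by an interval of 0.552 to 2.74 percentage points, and summits within genes had it at 1.80%, a difference of 0.197 points (-0.766 to 1.54). The call was lost on the peaks of replicate 3 alone, without replicate 1 (1.39 points, exact McNemar, adjusted p = 0.0527), within 25 bp of the summit (1.07 points, adjusted p = 0.211) and among the higher-signal part of the list (0.904 points, adjusted p = 1). A spacer of 4 bases (DR4) was present at 6 summits and in no flanking window, and did not pass (exact McNemar, adjusted p = 0.422).

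The 15 DR1 summits had signals from 273 to 701, and 3 of them were in the highest of the 4 groups by signal. The highest had a signal of 701, beside tei, at ranks 1340 (replicate 1) and 1460 (replicate 3). Next came a summit with 637, 39167 bp from the coding start of comm but 9571 bp from the nearest annotated start. Another, with 612, was 13606 bp from the coding start of CG13300 and 4595 bp from the nearest annotated start. No DR1 summit was beyond 10000 bp of an annotated start. Lower down were Octbeta2R, an octopamine receptor gene, with 431, GCS2alpha, the catalytic subunit gene of glucosidase II, with 408, and CG3942 with 402. The rest of the 10 highest, scramb1, CG42450, CG12507 and c12.1, had signals between 337 and 355. In the 16 repeats, the first hexamer was GGGTCA in 9, AGGTCA in 5 and AGTTCA in 2, and the second was AGGTCA in 9, GGGTCA in 4 and AGTTCA in 3. The spacer was G in 8, A in 7 and C in 1.

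One consensus sequence unrelated to the half-site also passed. CGATA, recognised by the insulator protein BEAF-32, was within 50 bp of 115 intergenic summits (15.3%) and in 66 flanking windows (8.80%; exact McNemar, adjusted p = 0.000886), against 14.2% of all optimal summits. The call was lost on the peaks of replicate 3 alone, without replicate 1 (4.16 points, exact McNemar, adjusted p = 0.187). It was also lost within 25 bp (2.53 points, exact McNemar, adjusted p = 0.412) and against windows 500 bp below the summit, of which 12.5% held the sequence (2.80 points, exact McNemar, adjusted p = 0.601). GATA preceded by A or T and followed by A or G, the core of GATA factor sites, was at 22.5% of summits and 18.3% of flanking windows (exact McNemar, adjusted p = 0.249), and at 24.2% of all optimal summits. The base before GATA differs from that of the BEAF-32 sequence, so the same GATA is not counted for both. With windows of 100 bp on either side, the GATA factor core passed, at 38.7% of summits and 31.6% of flanking windows (exact McNemar, adjusted p = 0.0212). The core of the CTCF site was at 4.93% of summits and 2.80% of flanking windows (exact McNemar, adjusted p = 0.249), and at 4.51% of all. The other sequences, among them those of Zelda, GAGA factor, Grainy head, Mef2, forkhead, POU and homeodomain proteins, did not pass. In base composition, the summit windows had 41.4 ± 11.3% G and C and the flanking windows 40.1 ± 10.1% (SD over 750 windows).

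Signals of the intergenic summits ran from 272 to 11219, with a median of 414 (396 to 431) and quartiles of 323 and 602. Peak signal is the value given by the authors' peak caller against a control, on a scale particular to each list. The median was 431 for summits within genes and 468 for summits by start sites. The ratio of the intergenic median to that of all other optimal summits was 0.929 (0.889 to 0.968). On the peaks of replicate 3 alone, without replicate 1, it was 0.949 with an interval that held 1 (0.901 to 1.01). Signals over 1000 were reached by 69 intergenic summits (9.20%), against 10.4% within genes and 15% by start sites. The difference from start sites was -5.82 percentage points (-8.26 to -3.12), while that from summits within genes, -1.16 points, had an interval that held 0 (-3.36 to 1.36). Intervals over summits count each summit once although the 750 shared 646 regions, so they cover counting error only.

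Most intergenic summits were found among the strongest peaks of each replicate. The 5723 highest peaks of both replicate lists overlapped 602 of the 750 (80.3%, 77.2 to 83.1%), against 83.0% of all optimal peaks. Replicate 1 alone supported 71 more at this depth of the list, replicate 3 alone 67, and neither supported 10. With the full lists of 30000 peaks, 742 were overlapped in both. The share was lower than that of summits by start sites, with a difference of -4.02 percentage points (-7.36 to -0.883). Median ranks were 2935.5 in replicate 1 and 2708 in replicate 3 for intergenic summits, and 2214 and 2266 for start sites. Between the replicates, Spearman's rho of the signals was 0.805 across 738 summits. These points share regions, and the optimal list was chosen for its agreement between replicates. Both rho and the shares found in the replicate lists are therefore descriptions.

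**Figure D2:**
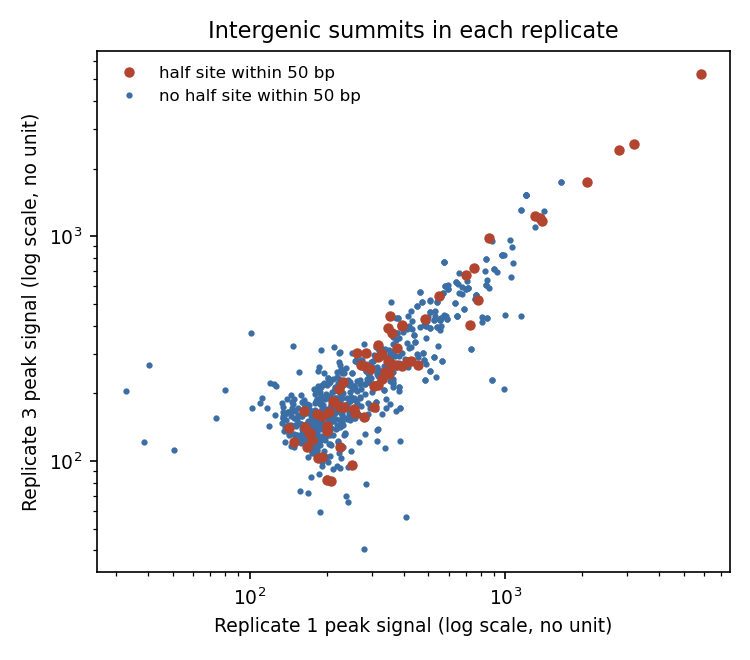
Signal of the replicate peak at each of 738 intergenic summits, replicate 1 on the horizontal and replicate 3 on the vertical axis (both log scale, no unit), with summits that have an exact half-site within 50 bp as larger red points. The points run along 1 band, and the few below 100 in replicate 1 and above it in replicate 3 stand apart from it.

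The choice of 500 bp cut through a continuous range. Nearest to the limit on the included side were summits at CG17261 (506 bp, signal 848), CG10479 (507 bp, 926) and CG34459 (508 bp, 669). Just on the other side were CG17896 (500 bp, signal 662), CG42571 (500 bp, 626) and C901 (487 bp, 310). The 46 included summits up to 600 bp had a median signal of 429, and the 54 intergenic ones at 400 to 500 bp had 494.

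The highest intergenic summits lay beside genes of varied kinds. Both of the first lay between CG13334 and CG42807 on 2R, at 13561726 with a signal of 11219 and at 13563059 with 8089. They shared 1 peak in each replicate, with signals of 5825 in replicate 1 and 5244 in replicate 3. The third, at 2R:7791434 with 5727, filled a gap of 730 bp between CG12824 and the gene of the glycolytic enzyme Gapdh1. It had replicate signals of 3200 and 2559. The fourth, 1145 bp upstream of comm, had 5170, with 2780 in replicate 1 and 2420 in replicate 3. The gene comm, commissureless, lets axons cross the midline by keeping Robo receptors from the growth cone surface. These 4 were within the 20 highest peaks of both replicates.

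The remaining 11 of the 15 highest ranked no lower than 176 in replicate 1 and 137 in replicate 3. Rcd2 had a signal of 3803 (2079 in replicate 1 and 1737 in replicate 3), 526 bp from its start. A summit between jigr1 and Tnks had 3332 (1653 and 1741), and one 2188 bp upstream of Rh5, the opsin gene of blue-sensitive photoreceptors, had 2777 (1209 and 1532). Summits at CG13949, CG13323, CG42808 and Tob, a gene of the BTG/Tob family of growth regulators, had 2707, 2570, 2567 and 2531. The CG13323 summit was in the 36783 bp between that gene and Su(z)2, a Polycomb group relative, and was 11916 bp from any start. The ND-B14.7 summit, with 2528, was nearer to the start of that complex I subunit gene, but shg, the gene of DE-cadherin, flanked its interval. Last were out, with 2434, CG43245, with 2402, and CG31668, with 2014.

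The 15 had 12 summits within 5000 bp of a start and a range of 526 to 34476 bp. In 7 of them an exact half-site was present. There were 7 upstream of the nearest coding start, and 6 between convergent genes, where no promoter faces the summit. On 2R lay 6 of the 15.

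Distance to the nearest annotated start had a median of 2667.5 bp, quartiles of 1236 and 5668 bp, and a maximum of 35900 bp. The nearest start was that of a protein-coding gene for 503 summits, and of a non-coding gene for 247, among them 22 tRNA genes. Density fell with distance. Per Mb of intergenic sequence at the same distance, there were 49.2 summits over 500 and up to 1000 bp (138 summits), 36.2 to 2000 bp (164), 26.6 to 5000 bp (237), 18.5 to 10000 bp (132) and 5.91 beyond 10000 bp (79). Within 2000 bp of a start the density was 6.96 times that beyond 10000 bp (5.42 to 9.04). Much of the farthest sequence lies near centromeres, beyond the outermost optimal summit of its arm. Counted between the first and last optimal summit of each arm, a choice made after seeing the data, the last density was 15.2 per Mb and the ratio 2.83 (2.21 to 3.68).

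**Figure D3:**
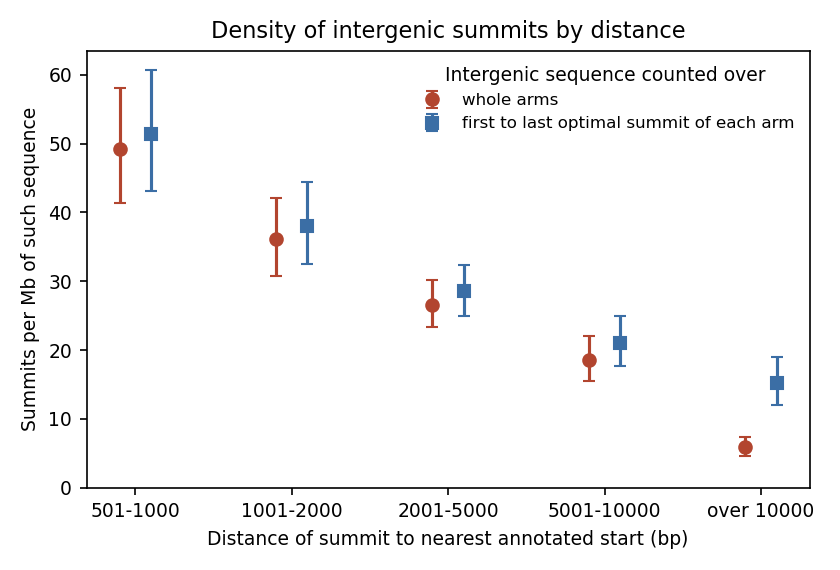
Intergenic summits per Mb of intergenic sequence (vertical axis) by distance of the summit to the nearest annotated start (horizontal axis, bp), with 95% exact Poisson intervals, counted over whole arms (circles) and between the first and last optimal summit of each arm (squares). Density falls over all 5 bins in both counts, and the last bin is 5.91 over whole arms and 15.2 between the outermost summits.

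High summits were found at each distance. Distances are to the nearest annotated start, coding or not, so the coding gene that names a summit can lie farther away. After the 15 above, those up to 1000 bp were led by a second summit at Rh5 with 1356. Next were sob, a zinc finger gene of the odd-skipped family, with 1318 and its coding start 7535 bp away, and RasGAP1 with 1311. From there to 2000 bp came aop with 1800, which encodes the ETS repressor Yan, then scb, an integrin alpha subunit gene, with 1475, and fz, the Frizzled receptor gene, with 1293. From 2000 to 5000 bp came CycB, the mitotic cyclin B gene, with 1966, Paics, of purine synthesis, with 1791, and Acsx4 with 1538. From 5000 to 10000 bp came SrpRbeta with 1775, its coding start at least 15048 bp away, CG31337 with 1622 and CG43245 with 1454. Beyond 10000 bp all 3 had CG43245 as the nearest coding gene, with 1417, 1169 and 847.

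Position relative to the flanking genes gave smaller differences. Between divergent genes, whose starts both face the interval, lay 197 summits (26.3%, 23.1 to 29.6%), where 19.9% of the available sequence lies (intergenic and more than 500 bp from any start). Between the outermost summits of the arms that part of the sequence was 23.3%, which is inside the interval. Tandem genes flanked 371 summits (49.5%, with 50.3% of the sequence) and convergent genes 182 (24.3%, with 25.8%). The highest further ones were aop, CG31337 and scb between divergent genes, Acsx4, the forkhead gene slp2 (1340) and sob between tandem genes, and CycB, Paics and SrpRbeta between convergent genes. Relative to the nearest coding start, 498 summits were upstream (66.4%, 62.9 to 69.8%). Of the available sequence, 59.0% is upstream, and between the outermost summits 60.8%.

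Long intervals held a summit more often than short ones. Of 6492 intervals between genes with sequence beyond the start-site windows, 468 held an intergenic summit. They numbered 169 of 981 intervals over 10 kb (17.2%), 97 of 792 intervals of 5 to 10 kb (12.2%) and 202 of 4719 shorter ones (4.28%). One summit was present in 319 intervals, 2 in 88, and 3 or more in 61, which together held 255 summits. Longer intervals have more room, and the share per interval does not allow for that.

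The interval with most summits lay on 3L from 10696878 to 10771924, between NijA, a ninjurin gene, and CG43245. It is 75047 bp long and held 16 summits, all in the 32624 bp on the CG43245 side. The highest was at 10737449 with 2402, followed by those at 10766836 with 1454, at 10745835 with 1417, at 10752736 with 1169 and at 10769874 with 1101. The lowest, at 10741387, had 290, and 14 of the 16 were among the highest peaks of both replicates. Only the summit at 10766836 held the exact half-site. The pooled list, which goes on to weaker peaks, had 44 summits in this interval.

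The next 7 intervals held 6 or 8 summits each. Between lncRNA:CR44526 and SrpRbeta were 8 summits with signals of 292 to 1775, of which 3 were nearest to hry, the pair-rule gene hairy, at over 20 kb from its start. The interval before CG7560 also held 8, with signals of 286 to 1034. Upstream of chinmo, a BTB zinc finger gene that marks early-born neurons, an interval between non-coding genes held 6 with signals of 314 to 1312, and half-sites at the summits with 1287 and 628. An interval from lncRNA:CR44730 to lncRNA:CR44731 held 6, of which 3 were nearest to noc, a zinc finger gene. The interval next to vvl, a POU gene needed in the trachea, is 70507 bp long and held 6 with signals of 286 to 676, all downstream and 22706 to 40381 bp from the start of vvl. Intervals beside CG4218 and CG13898 had 6 each. No exact half-site was present at the 8, 8, 6, 6, 6 and 6 summits by SrpRbeta, CG7560, noc, CG4218, CG13898 and vvl.

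**Figure D4:**
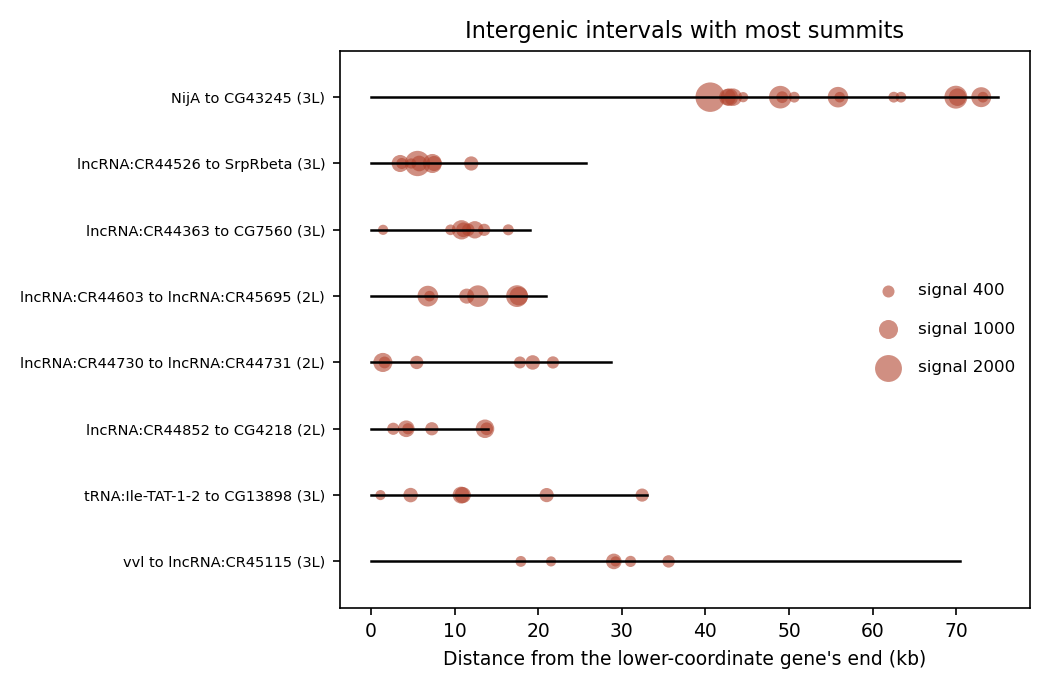
The 8 intervals between annotated genes that hold most intergenic summits, each as a line from the end of the gene at its lower coordinate (horizontal axis, kb), with a circle for each summit and its area proportional to the signal. The 16 summits between NijA and CG43245 lie in the right part of that interval, and the 6 beside vvl lie between 17 and 36 kb along theirs.

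The 750 summits named 461 protein-coding genes by nearest start, 3.31% of the 13945 on the arms used. Of these, 320 were named by 1 summit, 83 by 2 and 58 by 3 or more. CG43245 had 18, comm 9, chinmo 8, and CG7560, CG4218 and Ids, the iduronate sulfatase gene, 7 each. The comm gene was the nearest coding start over 3 intervals, from 1145 to 39369 bp, and its neighbour comm2 had 4 summits more with signals of 309 to 500.1. The median of the highest signal per named gene was 438.

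Most lists of developmental regulators held larger shares of genes named this way than the 3.31% of all genes. Among Fox, Sox and T-box genes, 10 of 29 were named (34.5%), with a median highest signal of 523. They were led by slp2 with 1340, by bin, a FoxF gene of the visceral mesoderm, with 1248, and by mid, of the Tbx20 kind, with 629. Among zinc finger and GATA genes, 10 of 32 were named (31.3%), led by sob with 1318, drm with 1008 and noc with 609. Segmentation genes had 6 of 22 (27.3%), led by slp2, by ptc, the Hedgehog receptor gene, with 1185 and by hry with 809. Basic helix-loop-helix genes had a lower share, 2 of 30 (6.67%), dimm with 441 and net with 285, and the list left out some genes of that kind, among them hry and Myc, which were named. Homeobox genes outside the Hox cluster had 13 of 66 (19.7%), led by C15 with 859, vvl with 676 and eyg with 649. None of the 8 Hox genes was named (exact interval up to 36.9%).

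Signalling and guidance genes came next. Ligands and receptors had 7 of 37 (18.9%), led by fz with 1293, ptc with 1185 and upd2, a ligand of the JAK/STAT pathway, with 647. Of axon guidance and adhesion genes 6 of 38 were named (15.8%), led by comm with 5170, robo2, a Slit receptor gene, with 538 and comm2 with 500. Tracheal genes had 5 of 27 (18.5%), led by aop with 1800 and vvl with 676, and knrl with 315. Notch pathway genes had 5 of 24 (20.8%), led by E(spl)malpha-BFM with 663, fng with 464 and Delta, a ligand of Notch, with 335. Nuclear receptors had 3 of 21 (14.3%): Hr38 with 406, knrl with 315 and kni with 311.

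Genes of differentiated tissues and metabolism had lower shares than most of the lists above. Muscle, glycolysis, cuticle and lipid genes still lay above the 3.31% of all genes, with exact intervals that held it. Muscle genes had 3 of 31 (9.68%), which were how with 523, Act87E with 387 and Zasp52 with 284. Glycolysis and central carbon genes had 2 of 26 (7.69%), Ldh, the lactate dehydrogenase gene, with 748 and Hex-A with 287. Cuticle protein genes had 3 of 52 (5.77%), led by Cpr67Fa1 with 414. Lipid and sterol genes had 2 of 38 (5.26%), Apoltp with 338 and Lip4 with 326. Ribosomal protein genes had 2 of 80 (2.5%), RpS15Aa with 1129 and RpS23 with 866. Of all 120 genes with an Or or Gr symbol, the odorant and gustatory receptors, 3 were named (2.5%), Gr39b with 1374, Gr93a with 971 and Gr93d with 435. None of the 41 neuronal channel, receptor and peptide genes listed was named (exact interval up to 8.60%, which holds the 3.31% of all genes). That list is a selection, and genes of the same kind outside it were named, among them Octbeta2R with 431 and KCNQ, a potassium channel gene, with 485.

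Densities per length of sequence gave another order, since the lists differ in the intergenic sequence around their genes. Between the outermost summits, the sequence nearest to each gene came to 10.1 kb for Fox, Sox and T-box genes, 7.67 kb for zinc finger and GATA genes and 13.7 kb for segmentation genes, against 1.92 kb for all protein-coding genes. Per Mb of that sequence, Fox, Sox and T-box genes had 51.4 summits (28.8 to 84.8), zinc finger and GATA genes 65.2 (37.3 to 106), axon guidance and adhesion genes 61.4 (37.0 to 95.9), segmentation genes 43.2 (23.0 to 73.9) and the other homeobox genes 39.9 (26.5 to 57.6). The highest density was that of glycolysis and central carbon genes, 198 (40.9 to 580), which rests on 3 summits. Notch pathway genes had 85.2 (27.7 to 199), muscle genes 56.1 (11.6 to 164), ribosomal protein genes 43.7 (9.02 to 128), nuclear receptors 27.7 (5.71 to 80.9) and basic helix-loop-helix genes 20.1 (2.44 to 72.7). Tracheal genes had 49.0 (23.5 to 90.2) and signalling ligands and receptors 50.2 (26.7 to 85.9). All protein-coding genes together had 28.0 (26.1 to 30.1). The interval of a list lay wholly above 28.0 only for Fox, Sox and T-box, zinc finger and GATA, axon guidance and adhesion, and glycolysis genes. The lower limit for Fox, Sox and T-box genes, 28.8, was below the upper limit for all genes, 30.1. For the other regulator lists the interval held 28.0, also for Notch pathway genes, whose estimate of 85.2 rests on 5 summits. These counts thus neither show nor exclude a higher density for those lists. Lists share genes, and several summits can lie by 1 gene, so the intervals are a description of counts.

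**Figure D5:**
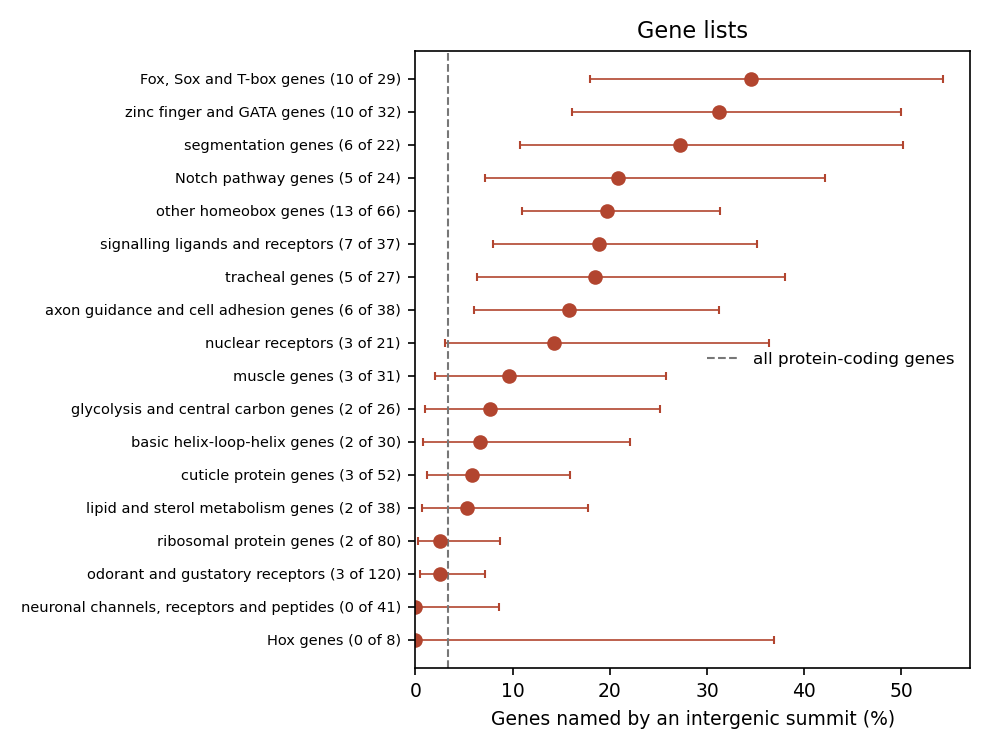
Share of the genes in each list (vertical axis, with counts) that have the nearest coding start to at least 1 intergenic summit (horizontal axis, %), with 95% exact binomial intervals and a dashed line at 3.31% for all protein-coding genes. Fox, Sox and T-box genes lie highest at 34.5%, and the Hox genes and the 41 selected neuronal genes lie at 0.

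Among the arms, 3L held 243 of the summits, 2L 164, 3R 138, 2R 126, X 77 and the fourth chromosome 2. They made up 18.6% of the optimal summits on 3L and 8.24% of those on X. Per Mb of available sequence, X had 0.664 times the density of the large autosomal arms (0.517 to 0.841). With 1 summit counted per interval the ratio was 0.836, with an interval that held 1 (0.625 to 1.10). Between the outermost summits it was 0.525 (0.409 to 0.665), and with 1 summit per interval as well 0.661 (0.494 to 0.870). The 3L density, a contrast chosen after seeing the counts, was 1.37 times that of the other large autosomal arms (1.16 to 1.60), and 1.08 times with 1 summit per interval (0.865 to 1.33). Between the outermost summits the same ratios were 1.60 (1.36 to 1.88) and 1.26 (1.01 to 1.56).

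Few summits lay in annotated transposable elements or pseudogenes, and other repeats were not counted here. One of the 750 was in an annotated transposable element (0.133%, 0.00338 to 0.741%), although these make up 10.8% of the available sequence and 7.84% of it between the outermost summits. It lay near eIF3f1 with a signal of 447. How the authors treated reads that map to several places is not given in the sources used here, and its part in this count was not tested. One more, near beta-Man with 288, was in a pseudogene. The regions around 75 summits reached into a gene span, and 675 were wholly intergenic.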

How the data were processed

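Peaks were called by the authors on each replicate alignment and on both together, with a control alignment, per the files deposited with the samples. The caller, the aligner and the threshold of the optimal list were not given in the sources used here. Coordinates are dm6, per the labels. Peak signal was deposited by the authors as the caller's value, so signals were compared within 1 list or by rank. The deposited −log10 q was not used for ranking. The summit offset was deposited by the authors in bp, counted from the start of the region. Read depth is unknown.

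Genes and starts came from Ensembl release 115 (BDGP 6.54) on 6 arms. A summit took the highest peak of a replicate that held it or lay within 200 bp. The values so matched belong to the replicate's peak, which several summits can share. Support by the top lists needed an overlap of 1 bp. Available sequence is intergenic sequence beyond 500 bp of a start. Consensus sequences (26) and arrangements of RGKTCA pairs (27, spacers of 0 to 8 bases) were counted on both strands in windows of 101 bp at the summit and 500 bp above it, and compared by exact two-sided McNemar tests with Benjamini-Hochberg adjustment in each family (threshold 0.05). Shares have 95% exact binomial intervals, densities exact Poisson intervals. The scripts were tested on simulated data. Python 3.11.15, numpy 2.4.6, scipy 1.17.1, pandas 2.3.3 and matplotlib 3.10.9 were used.

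The members, lists and tests were chosen with earlier results of these data known. Summits were named by rule: the 15 highest found among the top peaks of both replicates, up to 3 more per distance bin, orientation class and gene list, the 8 intervals with most members, 10 DR1 summits and those nearest to the limit. Other names were added with their values known. The 18 gene lists are selections of symbols, except that odorant and gustatory receptors are all genes so named, a change made after seeing the data. Older symbols were matched by their synonyms. Alternatives varied the start-site distance, the annotation, the windows, the overlap, the strength of peaks and the replicate used.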

Additional observations from a re-analysis of the deposited data

How the results depend on the processing

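No paired analysis was possible because there was 1 group. Of 115 alternatives, 91 stayed within the limits set for them (the main interval, the same side of the threshold or 1.5 times a count), 21 moved beyond them, 3 ended the DR1 call and 0 reversed a direction. Those with available sequence between the outermost summits, with 1 summit per interval and with regions wholly outside gene spans were chosen after seeing the data. The intergenic share of 13.1% was 16.7% with starts at 250 bp, 10.7% at 1000 bp, 16.3% with only protein-coding genes annotated and 11.6% in the higher-signal part of the list. The share of genes named, 3.31%, was 4.34%, 2.58%, 3.88% and 1.63% under the same settings. The ratio of near to far density, 6.96, was 9.47 with starts at 250 bp, 3.69 with protein-coding genes only, 4.44 with pseudogenes and transposable elements as genes and 2.83 between the outermost summits. Divergent intervals held 34.1% with protein-coding genes only, and the X ratio was 0.515 in the higher-signal part. With windows of 100 bp on either side, 6 consensus sequences passed in place of 3. Those added were the GATA factor core and the repeat CACACACA, both higher at summits, and that of Pho, lower at summits. Without replicate 1, within 25 bp and with flanking windows 500 bp below the summit 2 passed, the CGATA call being lost. The excess of DR1 over flanking windows was 0.904 points in the higher-signal part and 1.07 points within 25 bp, and neither passed. With 1 replicate at a time it was 1.39 to 2.05 points, and the lower value, without replicate 1, did not pass. Some of these settings counted fewer summits or shorter windows, and the cause of the changes was not tested. Support by the top lists of both replicates, 80.3%, was 63.5% with 50% reciprocal overlap, 68.4% with summits within 100 bp, 98.9% with the full lists, 76.5% with 1 summit per region and 89.2 to 89.7% with 1 replicate alone. The excess of AGGTCA over flanking windows passed under all 14 of its alternatives, while the ratio of signals, 0.923 to 0.949 with 1 replicate at a time, had an interval that held 1 without replicate 1. So did the X ratio with 1 summit per interval (0.836). Depth is unknown and there was no untagged line, so no share has a background in embryos without the tag.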

Other observations

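The pooled list of 30000 peaks, which the optimal list heads, had 5414 summits that met the same intergenic rule (18%), against 750 in the optimal list. The 4664 weaker ones made up 19.2% of the peaks below the optimal list, and their median signal was 90.1.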
